A study of Mus musculus with 5 samples.

Results

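Occupancy by KAP1 and by Ring1b was described at 45 germline and meiosis genes of mouse embryonic stem cells, out of 21031 protein-coding genes of the RefSeq annotation. The 45 were a list of symbols, and each was looked up by its RefSeq accessions in the 6 gene and promoter tables that the authors deposited. By function, 16 belong to the piRNA pathway, 12 to synapsis and meiotic cohesin, 8 to recombination, 4 to RNA binding and meiotic entry, and 5 to other roles in germ cells. The data were chromatin immunoprecipitation followed by sequencing (ChIP-seq), with 1 library in each of 5 groups. KAP1 was mapped in KAP1 fl/fl cells given 4-OH-tamoxifen, the KAP1 knockout, and in KAP1 fl/fl cells given the ethanol vehicle. Ring1b was mapped in KAP1 fl/fl cells given 4-OH-tamoxifen, in Ring1b fl/fl cells given 4-OH-tamoxifen, the Ring1b knockout, and in Ring1b fl/fl cells given vehicle. Drug or vehicle was given for 24 h and culture went on for 48 h, with tamoxifen kept for Ring1b fl/fl cells and absent for KAP1 fl/fl cells. All groups carried conditional alleles of one of the 2 genes and grew on irradiated mouse embryonic fibroblasts. The sources used here give neither the amount of feeder chromatin, nor the recombinase that deletes the alleles, nor the read depths.

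Germ cells make proteins that other cells keep silent. The piRNA pathway uses Piwi proteins and small RNAs to silence transposons in the male germ line. In meiosis, Spo11 cuts the DNA, Dmc1 helps repair the breaks on the homologous chromosome, and the synaptonemal complex zips the homologs together. Ring1b, encoded by Rnf2, gives Polycomb repressive complex 1 its catalytic activity. A variant of that complex that holds Pcgf6, Mga, Max, E2f6 and L3mbtl2 is known to repress germline genes in embryonic stem cells. Its Mga and Max subunits bind E-boxes, and E2f6 binds E2F sites. KAP1, encoded by Trim28, is a corepressor brought to DNA mainly by zinc finger proteins.

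Each of the 3 peak lists compares 1 library with a control library. The KAP1 list of 82775 peaks and the Ring1b list of 13516 peaks set vehicle cells against knockout cells of the same line. The last list, of 8928 peaks, called the knockout list below, sets Ring1b in KAP1 knockout cells against Ring1b in Ring1b knockout cells, which are another line. A peak's score is the authors' own value, 10 times the −log10 p of that library against its control, and it ranks peaks within 1 list only. With 1 library per group there is no replicate error and no test between groups, and the exact 95% intervals (Clopper-Pearson) cover counting error over genes or peaks only.

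Promoter sequences are shown first for 5 members, 1 from each function group. They are the members with the highest Ring1b score of their group that had a RefSeq sequence at the deposited promoter. Each runs from 250 bases before to 50 bases after a transcript start (RefSeq, GRCm38.p6) and is written 5′ to 3′ along the gene. Capitals mark letters found by a search of both strands for the E-box CACGTG, the E2F site GCGGGAA and the T-box site GGTGTGA; in Tdrd5 the capitals are E2F and T-box letters read from the opposite strand. None of the 3 motifs overlapped another in the sequences shown. Tdrd5 lies at chr1:156303299-156303598, minus strand, Hormad1 at chr3:95559427-95559726, plus strand, Dmc1 at chr15:79605060-79605359, minus strand, Meioc at chr11:102665335-102665634, plus strand and Taf7l at chrX:134476441-134476740, minus strand. The sequence of Taf7l covers its start but lies outside its Ring1b peak, which begins farther downstream.
Tdrd5: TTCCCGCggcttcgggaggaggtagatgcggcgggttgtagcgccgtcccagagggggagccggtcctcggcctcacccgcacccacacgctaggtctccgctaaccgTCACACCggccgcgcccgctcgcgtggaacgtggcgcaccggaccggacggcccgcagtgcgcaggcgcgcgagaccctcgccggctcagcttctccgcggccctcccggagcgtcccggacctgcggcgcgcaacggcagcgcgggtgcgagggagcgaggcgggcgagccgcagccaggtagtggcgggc
Hormad1: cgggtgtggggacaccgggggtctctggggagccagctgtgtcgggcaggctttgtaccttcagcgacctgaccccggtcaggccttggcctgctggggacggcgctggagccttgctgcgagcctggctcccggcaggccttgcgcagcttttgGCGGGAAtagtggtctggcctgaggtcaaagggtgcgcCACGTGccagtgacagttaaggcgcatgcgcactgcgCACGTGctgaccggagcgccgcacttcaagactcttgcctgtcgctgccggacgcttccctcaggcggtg
Dmc1: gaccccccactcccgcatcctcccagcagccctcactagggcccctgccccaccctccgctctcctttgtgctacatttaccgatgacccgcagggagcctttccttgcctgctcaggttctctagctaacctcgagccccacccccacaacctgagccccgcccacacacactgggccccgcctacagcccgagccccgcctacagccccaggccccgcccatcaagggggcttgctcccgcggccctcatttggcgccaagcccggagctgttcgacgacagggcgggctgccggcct
Meioc: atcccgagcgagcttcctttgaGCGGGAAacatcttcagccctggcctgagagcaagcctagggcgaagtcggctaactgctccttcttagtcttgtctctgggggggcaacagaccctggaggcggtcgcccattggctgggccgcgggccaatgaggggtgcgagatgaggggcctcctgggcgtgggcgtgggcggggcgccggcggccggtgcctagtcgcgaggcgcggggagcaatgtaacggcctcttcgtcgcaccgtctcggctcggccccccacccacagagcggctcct
Taf7l: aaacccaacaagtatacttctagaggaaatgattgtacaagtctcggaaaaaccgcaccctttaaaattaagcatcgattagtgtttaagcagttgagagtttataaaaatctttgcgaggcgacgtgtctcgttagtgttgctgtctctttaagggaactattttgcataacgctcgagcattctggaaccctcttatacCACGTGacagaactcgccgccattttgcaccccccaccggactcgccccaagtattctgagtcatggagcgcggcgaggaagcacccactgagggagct

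For contrast, 3 promoters without Ring1b follow. Stra8 (chr6:34920698-34920997, plus strand) had the highest KAP1 score of the members with KAP1 and no Ring1b. Asz1 (chr6:18109012-18109311, minus strand) and Gtsf1 (chr15:103430378-103430677, minus strand) were the first by symbol of the members in no class that had a sequence. Piwil1, Tdrd9 and Fkbp6, also without Ring1b, hold E-boxes and are not printed.
Stra8: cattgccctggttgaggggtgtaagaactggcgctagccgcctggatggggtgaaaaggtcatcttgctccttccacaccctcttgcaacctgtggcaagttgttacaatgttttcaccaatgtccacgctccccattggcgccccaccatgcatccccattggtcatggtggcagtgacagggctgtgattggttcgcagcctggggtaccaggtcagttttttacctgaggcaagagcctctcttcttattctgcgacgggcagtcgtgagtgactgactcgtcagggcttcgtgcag
Asz1: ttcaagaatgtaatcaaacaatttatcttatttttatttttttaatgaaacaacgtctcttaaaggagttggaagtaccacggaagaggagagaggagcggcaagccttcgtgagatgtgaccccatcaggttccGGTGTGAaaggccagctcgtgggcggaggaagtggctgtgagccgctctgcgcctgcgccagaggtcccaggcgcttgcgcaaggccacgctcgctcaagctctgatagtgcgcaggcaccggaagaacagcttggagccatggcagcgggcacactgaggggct
Gtsf1: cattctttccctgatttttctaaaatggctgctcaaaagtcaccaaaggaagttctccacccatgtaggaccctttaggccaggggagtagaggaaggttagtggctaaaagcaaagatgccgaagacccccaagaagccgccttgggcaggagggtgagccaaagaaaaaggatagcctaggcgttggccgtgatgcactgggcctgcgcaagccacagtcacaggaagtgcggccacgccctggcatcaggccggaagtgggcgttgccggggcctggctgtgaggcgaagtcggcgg

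Ring1b lay at the promoters of most germline and meiosis genes, and KAP1 was at most of the same promoters. Of the 45 members, 32 had Ring1b at a promoter (71.1%, interval 55.7% to 83.6%), against 28.7% of all genes. KAP1 was at the promoters of 30 members (66.7%, interval 51.0% to 80.0%), against 58.6% of all genes, which that interval includes. A promoter here is the deposited window, which reaches 1 kb to either side of the start. Both proteins shared a promoter at 28 members (62.2%, interval 46.5% to 76.2%), against 24.8% of all genes. KAP1 alone was listed at 3 members (6.67%, interval 1.4% to 18.3%), against 34.3% of all genes, and Ring1b alone at 4 members (8.89%, interval 2.48% to 21.2%), against 4.04% of all genes. In none of these classes were 11 members (24.4%, interval 12.9% to 39.5%), against 37.5% of all genes. Tex14 counts under both shared and KAP1 only, since it has promoters in each.

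The share of promoters with KAP1 among those with Ring1b was close in the members and in the genome. KAP1 was also present at 28 of the 32 members with Ring1b (87.5%, interval 71.0% to 96.5%), against 5227 of 6041 genes (86.5%, interval 85.6% to 87.4%). Over whole genes, the deposited tables gave 28 members as shared, against 30.7% of all genes. Another 6 members were KAP1 only over the whole gene, against 30.7% of all genes, and 1 was Ring1b only, against 2.06% of all genes.

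**Figure D1:**
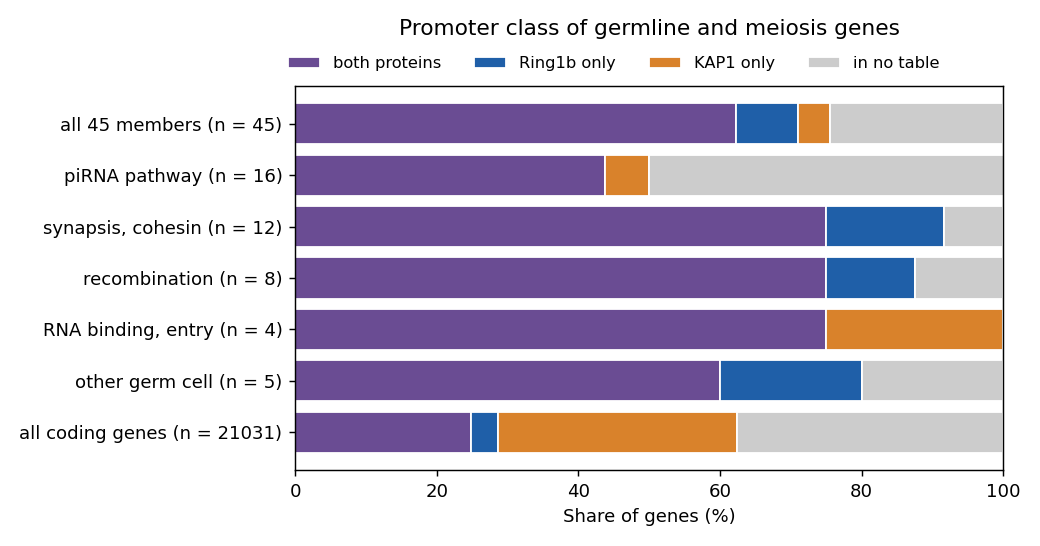
Share of genes in each promoter class of the deposited tables, in percent, for the members, each function group and all protein-coding genes. Ring1b reached the promoters of 11 of 12 synapsis and cohesin genes and of 7 of 16 piRNA pathway genes, against 28.7% of all genes.

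The function groups were occupied to unequal extents. Ring1b was at 11 of 12 synapsis and cohesin genes (91.7%, interval 61.5% to 99.8%), at 7 of 8 recombination genes (87.5%, interval 47.3% to 99.7%), at 3 of 4 RNA binding and entry genes (75.0%, interval 19.4% to 99.4%) and at 4 of 5 other germ cell genes (80.0%, interval 28.4% to 99.5%). At the piRNA pathway it reached 7 of 16 genes (43.8%, interval 19.8% to 70.1%). The share with Ring1b over all genes was 28.7%. It lies inside the intervals of the piRNA, RNA binding and other germ cell groups. Of the 16 piRNA genes, 8 were in no class (50.0%, interval 24.7% to 75.3%), against 37.5% of all genes, which that interval includes. The Ring1b interval of the piRNA group overlaps that of every other group, and the difference between groups was not tested.

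In the piRNA pathway Tdrd5, Tdrd6 and Mael had the highest Ring1b scores. Tdrd5, whose protein is needed to silence transposons in the testis, had the highest Ring1b score of all members, 2383, in a peak 2211 bp wide (chromosome 1, 156302071 to 156304281). Its KAP1 peak had a score of 188 and was 1017 bp wide (156302778 to 156303794). Tdrd6, a Tudor protein of the chromatoid body, had a Ring1b score of 1460 over 2256 bp (chromosome 17, 43628630 to 43630885) and a KAP1 score of 71.7 over 440 bp. Mael, the mouse Maelstrom gene, had a Ring1b score of 959 over 1071 bp (chromosome 1, 166238054 to 166239124) and a KAP1 score of 331 over 979 bp. Tdrd5 and Tdrd6 were the only members with Ring1b peaks of 2 kb or more.

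The other shared members of the pathway had lower Ring1b scores. They were Stk31 (647), a kinase with a Tudor domain, Tdrd1 (607), which binds Piwi proteins, Tdrkh (279), which takes part in piRNA trimming, and Mov10l1 (220), the helicase of the first piRNA steps. Fkbp6, a cochaperone of the pathway, had KAP1 without Ring1b, with a score of 173 over 1230 bp (chromosome 5, 135349332 to 135350561). The 3 Piwi genes of the list, Piwil1, Piwil2 and Piwil4, had neither protein at a deposited promoter. Neither did Asz1, a scaffold on the mitochondrial surface, Gtsf1, a Piwi cofactor, Rnf17, or the Tudor genes Tdrd7 and Tdrd9.

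Among synapsis and cohesin genes only Rec8, a meiotic cohesin subunit, was in no class. Hormad1, a protein of the chromosome axis, led the group with a Ring1b score of 779 over 787 bp (chromosome 3, 95559323 to 95560109) and a KAP1 score of 165 over 680 bp. Tex12, a central element protein, had a Ring1b score of 701 over 847 bp (chromosome 9, 50560755 to 50561601) and a KAP1 score of 141 over 615 bp. Sycp1, the transverse filament of the synaptonemal complex, had Ring1b alone, with a score of 583 over 1104 bp (chromosome 3, 102935234 to 102936337). The KAP1 peaks of Sycp1 lay inside the gene, away from its promoter, with scores of 304, 78.3 and 70.9. Syce3, another central element gene, was also Ring1b only, with a score of 65.2 over 410 bp (chromosome 15, 89409932 to 89410341).

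The rest of the group were shared and spanned a wide range of Ring1b scores. The central element genes Syce2 and Syce1 had 471 and 355. The cohesin gene Stag3 had 401. Smc1b, another cohesin gene, had 310 over 772 bp (chromosome 15, 85131453 to 85132224), with a KAP1 score of 105 over 577 bp. The lateral element genes Sycp3 and Sycp2 had 155 and 146, and Hormad2, an axis gene, had 54.5, the lowest of the members' strongest Ring1b promoter peaks. Stag3 and Smc1b lie within 1 kb of the starts of Gpc2 and Ribc2, so their peaks cannot be assigned to one gene of the pair.

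The median Ring1b score of recombination genes was the lowest of the function groups. It was 132 (n = 7, range 68.4 to 792), against 355 for synapsis and cohesin genes (n = 11, range 54.5 to 779). The median was 647 for piRNA genes (n = 7, range 220 to 2383). It was 951 for RNA binding and entry genes (n = 3) and 182 for other germ cell genes (n = 4). The ranges of the first 3 groups overlap, and the difference was not tested. Mei1, needed for meiotic breaks, stood above the rest with a Ring1b score of 792 over 1062 bp (chromosome 15, 82069844 to 82070905) and a KAP1 score of 168 over 876 bp. Meiob, which binds single-stranded DNA, had 242 over 771 bp for Ring1b (chromosome 17, 24803958 to 24804728) and 256 over 1131 bp for KAP1. Spo11, which makes the breaks, had 198 over 569 bp for Ring1b (chromosome 2, 172979699 to 172980267) and 138 over 771 bp for KAP1. Dmc1, the meiotic recombinase, had the highest KAP1 promoter score of any member, 367 over 1296 bp (chromosome 15, 79604434 to 79605729), with a Ring1b score of 132. Msh5 and Msh4, which stabilise crossovers, had Ring1b scores of 75.4 and 68.4, and KAP1 scores of 242 and 185. Tex11, an X-linked crossover gene, was Ring1b only, with a score of 128 over 517 bp (chromosome X, 101059509 to 101060025).

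The scores of the 2 proteins did not follow one order across the groups. The median KAP1 score was 213 for recombination genes (n = 6), against 105 for synapsis and cohesin genes (n = 9) and 146 for piRNA genes (n = 8), although recombination had the lowest Ring1b median of the 3. Over all 28 shared members the Spearman rank correlation between the scores was 0.14, and over 5227 genes with both proteins it was −0.13. These are descriptions across promoters from the same libraries, which are not independent replicates.

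Among genes of RNA binding and meiotic entry, Meioc and Ddx4 had high Ring1b scores, Dazl a low one and Stra8 none. Meioc, which with Ythdc2 drives meiotic progression, had a Ring1b score of 1352 over 1623 bp (chromosome 11, 102664935 to 102666557) and a KAP1 score of 334 over 872 bp. Ddx4, the mouse Vasa helicase, had 951 over 1191 bp for Ring1b (chromosome 13, 112651729 to 112652919) and 201 over 778 bp for KAP1. Dazl, an RNA-binding protein that licenses germ cells for meiosis, had 157 over 1251 bp for Ring1b (chromosome 17, 50292603 to 50293853) and 257 over 1296 bp for KAP1. Stra8, the retinoic acid target that starts meiosis, had 3 KAP1 peaks at its promoter and no Ring1b peak. The strongest of them scored 261 over 396 bp, with its summit at −758 bp from the start, which is upstream (chromosome 6, 34919957 to 34920352).

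Of the remaining members, Taf7l, an X-linked germ cell paralog of a TFIID subunit, was Ring1b only with a score of 286 over 1266 bp (chromosome X, 134474742 to 134476007). Its summit lay 1372 bp downstream of the start, the farthest of any member. Brdt, a testis bromodomain protein, had 259 over 460 bp for Ring1b (chromosome 5, 107330892 to 107331351) and 123 over 454 bp for KAP1. Slc25a31, a germ cell ADP/ATP carrier, had 105 over 639 bp for Ring1b (chromosome 3, 40708620 to 40709258) and 99.5 over 751 bp for KAP1. Tex14, needed for the bridges between germ cells, had a Ring1b score of 67.4 over 451 bp (chromosome 11, 87404886 to 87405336) and a KAP1 score of 278 over 1295 bp, within 1 kb of the start of Rad51c. Its second promoter had KAP1 alone, and 16 KAP1 peaks lay in the gene. Tex101, a sperm surface protein gene, was in no class.

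**Figure D2:**
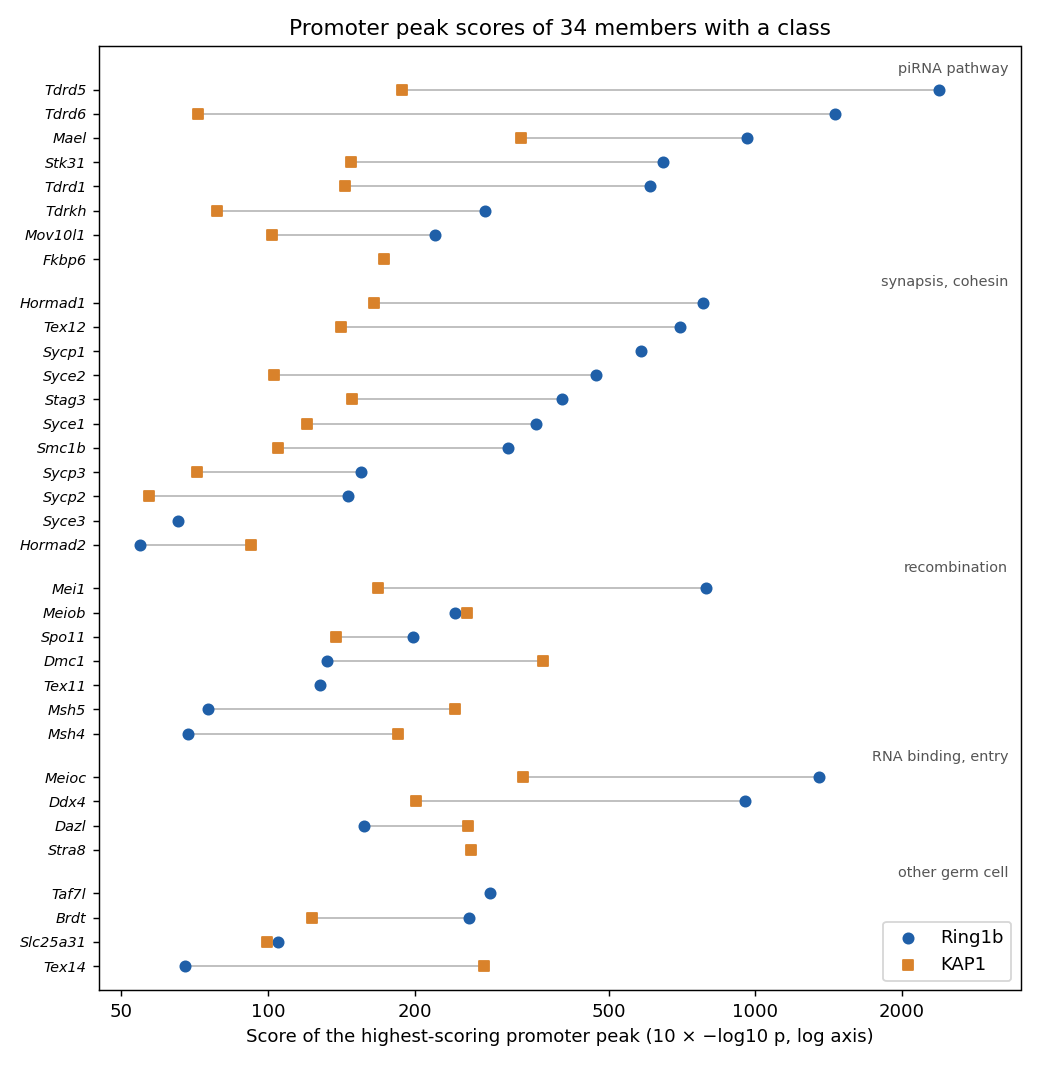
Ring1b and KAP1 peak scores (10 times −log10 p, log axis) of the highest-scoring promoter peak of each member, by function group; scores rank peaks within 1 list only. Tdrd5, Tdrd6 and Meioc have the highest Ring1b scores, 2383, 1460 and 1352, and Dmc1 has the highest KAP1 score, 367.

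The widest Ring1b peaks of the genome were not at the members. The members' median width was 830 bp (range 410 to 2256), against 920 bp over all genes with a Ring1b promoter peak, where the widest reached 25283 bp. Only 2 of 32 were 2 kb or wider (6.25%), against 21.6% of all Ring1b genes, and 0 of 32 reached 5 kb, against 3.67%. No member had a score of 3100 or more, a value shared by many of the strongest Ring1b peaks, against 10.2% of all Ring1b genes. The median score was nonetheless 283 at the members, against 228 over all genes with a Ring1b promoter peak. For KAP1 the median score was 149 at the members, against 148 over all genes with a KAP1 promoter peak, and the median width was 761 bp, against 789 bp.

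Width rises with score in this list, so widths were also set side by side within ranges of score that were chosen after the values had been seen. From 50 up to 150, the members' median width was 537 bp (n = 9), against 473 bp for all genes (n = 2485). From 150 up to 500, it was 869 bp (n = 12), against 954 bp (n = 1402). From 500 up to 1000, it was 954 bp (n = 8, widest 1191), against 1530 bp (n = 659, widest 4209). From 1000 up to 3100, it was 2211 bp (n = 3), against 2217 bp (n = 879). The members' median was lower in the range from 500 to 1000 and differed less from that of all genes in the others, and no difference was tested.

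**Figure D3:**
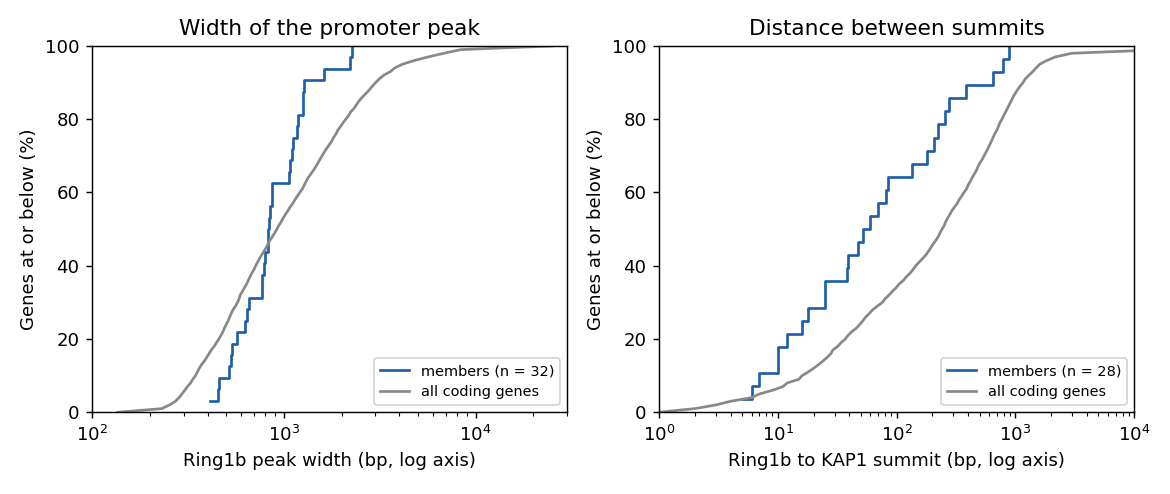
Width of the highest-scoring Ring1b promoter peak (left) and distance between the Ring1b and KAP1 summits at shared promoters (right), in bp on log axes. Curves give the share of genes at or below each value, for the members and for all coding genes with such peaks. The widest Ring1b peak at a member is 2256 bp, against 25283 bp over all genes.

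The 2 proteins sat at nearly the same place. At all 28 shared members the strongest KAP1 and Ring1b peaks overlapped (100%), against 89.4% of all shared genes. The distance between their summits had a median of 56.0 bp (quartiles 17.5 to 212), against 242 bp (quartiles 52.0 to 650). The strongest peaks were taken over all promoters of a gene. In a gene with several promoters they can lie at different ones, and the largest distance over all genes was 1168915 bp. Among shared members only Tex14 had more than 1 promoter window, so members and all genes are not fully alike in this measure. It was within 250 bp at 22 of 28 members (78.6%), against 50.9%. Among Ring1b peaks under 2 kb the median distance was 56.0 bp over 26 members, against 190 bp over 4186 genes. Smc1b (5 bp), Msh4 (6 bp), Tdrkh (7 bp), Mael (10 bp), Tdrd6 (10 bp) and Syce1 (12 bp) had the closest summits. Meioc (890 bp), Tex14 (791 bp), Tdrd5 (655 bp) and Ddx4 (384 bp) had the farthest. These distances use only the strongest peak of each protein. At Meioc a weaker KAP1 peak (102665904 to 102666521, score 109) spans the Ring1b summit at 102666126. At Tex14 a weaker Ring1b peak (87404446 to 87404761, score 57.7) lies nearer the KAP1 summit at 87404225. Fragments of about 200 bp set the resolution of such distances. Counted by peaks, 29 of the 33 Ring1b peaks at member promoters met a KAP1 peak (87.9%, interval 71.8% to 96.6%), against 5491 of 6705 at all deposited promoters (81.9%).

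Most peaks lay at transcript starts. The start was taken as the point 1 kb inside the deposited window on the gene's upstream side. Where a window is shared with a neighbouring gene, as at Tex14, Stag3 and Smc1b, that point can differ from the gene's own start. At Tex14 the Ring1b summit counted as 520 bp downstream, although the peak spans the gene's first annotated base at 87405013. The counts and medians below, over all genes too, carry this limit. Ring1b summits were within 500 bp of the start at 28 of 32 members (87.5%), against 68.7% of all Ring1b genes, and the peak covered the start at 27 (84.4%), against 76.5%. KAP1 summits were within 500 bp at 28 of 30 members (93.3%), against 78.5% of all KAP1 genes. The median Ring1b summit lay 66.5 bp downstream of the start at the members, against 171 bp downstream over all genes.

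**Figure D4:**
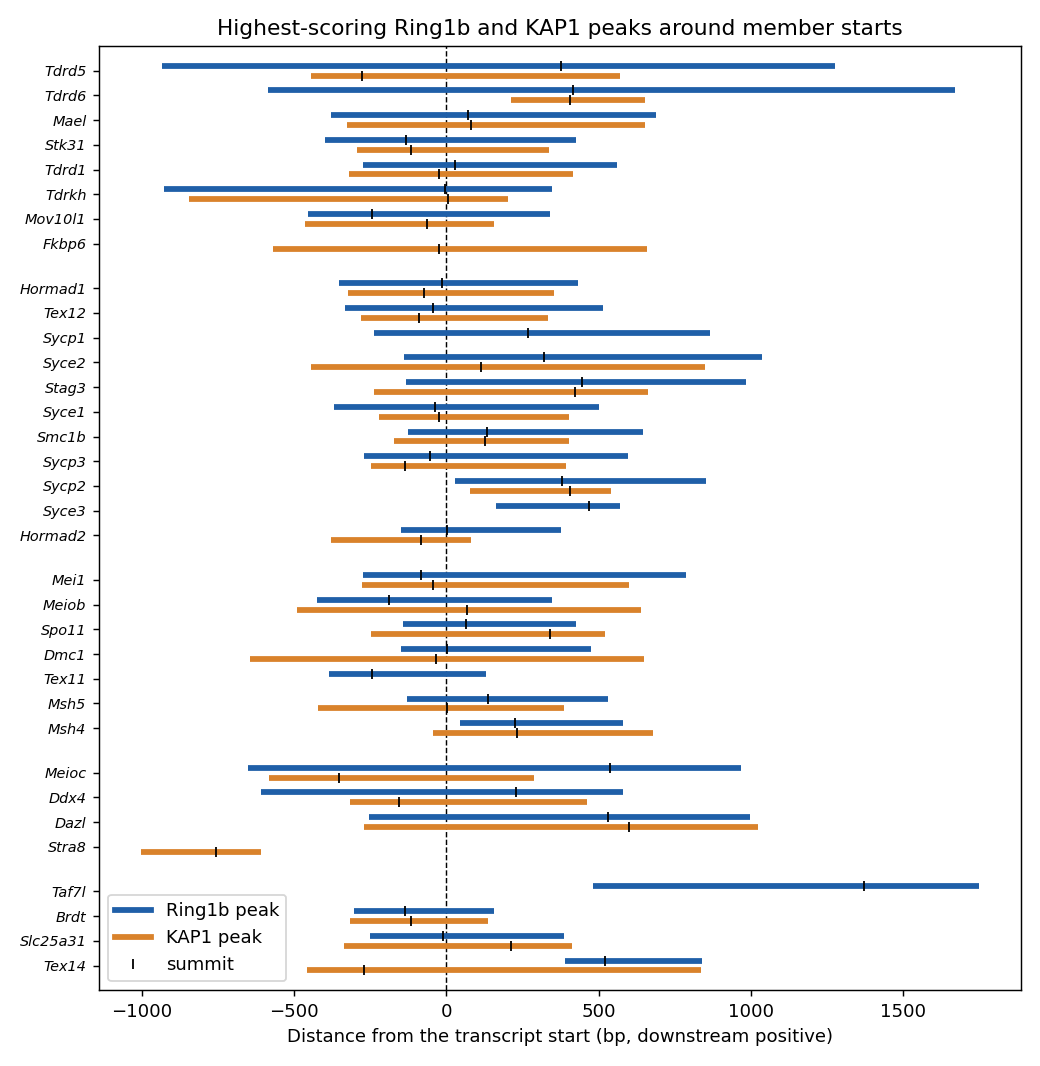
Extent of the strongest Ring1b and KAP1 promoter peak of each member relative to its transcript start, in bp along the gene, with summits marked. The start is taken from the deposited window and can differ from the gene's own start at Tex14, Stag3 and Smc1b, which share a window with a neighbour. Most peaks cover the start, while the Taf7l Ring1b summit lies 1372 bp downstream and the Stra8 KAP1 summit at −758 bp, upstream.

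Promoter sequence was available for 38 of the 45 members, of which 28 had Ring1b and 10 did not. The sequence of Mei1 lies at another start than its deposited promoter. That of Msh4 (153904842 to 153905141) also lies at another start and only meets the edge of the deposited promoter. It is outside the Msh4 Ring1b peak (153905558 to 153906094). Mei1 and Msh4 are counted in the 28. The E-box CACGTG was in 13 of the 28 with Ring1b (46.4%), against 11.0% of 4676 genes with Ring1b and 8.14% of all 16853 genes with a sequence. The E2F site GCGGGAA was in 11 of 28 (39.3%), against 8.85% of genes with Ring1b and 6.19% of all genes. Both were present in 6 of 28 (21.4%), against 1.11% and 0.611%. Those 6 were Sycp3, Tex12, Hormad1, Stag3, Ddx4 and Slc25a31. The T-box site GGTGTGA was in 3 of 28 (10.7%), Tdrd5, Sycp3 and Brdt, against 3.4% and 3.73%. A match is a run of letters and not a measured binding site.

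Members without Ring1b are few, so their shares are imprecise. E-boxes were in 3 of 10 (30.0%), Piwil1, Fkbp6 and Tdrd9, against 8.14% of all genes, 4.77% of genes in no class and 9.54% of KAP1 only genes. The E-box share was thus above that of all genes in members without Ring1b too. The E2F site was in 0 of 10, which allows a share of up to 30.0% (3 counts of the total). The shares of all genes (6.19%), genes in no class (2.03%) and KAP1 only genes (8.64%) lie under that limit. The T-box site was in 1 of 10 (10.0%), Asz1, against 3.73% of all genes. The ratio of observed to expected CpG had a median of 0.76 in the 28 members with Ring1b and 0.54 in the 10 without, against 0.75 over all genes with Ring1b and 0.6 over all genes. Stra8, Asz1 and Gtsf1, printed above, have neither E-box nor E2F letters.

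The motifs lay under the Ring1b peaks. Of 15 E-boxes in members with Ring1b, 14 fell inside that member's peak (93.3%), at a median of 43.0 bp from its summit, against 81.4% and 200 bp for 580 E-boxes over all genes with Ring1b. All 11 E2F sites fell inside the peak, at a median of 98.0 bp, against 79.9% and 220 bp for 437 sites over all genes. In Hormad1 the E-box nearer the start was 2 bp from the Ring1b summit and the other 39 bp from it. In Mov10l1 the E-box was 1 bp away, in Stk31 15 bp, and in Sycp3 the nearer of 2 was 6 bp away. Others lay farther from the summit but inside the peak. E-boxes were 358 bp away in Sycp1, 290 bp in Mael and 255 bp in Ddx4. E2F sites were 766 bp away in Meioc and 624 bp in Tdrd5. Only the E-box of Taf7l lay outside the peak, 1418 bp from the summit. These distances also depend on how near a summit is to the start, since only 300 bases around each start were searched.

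**Figure D5:**
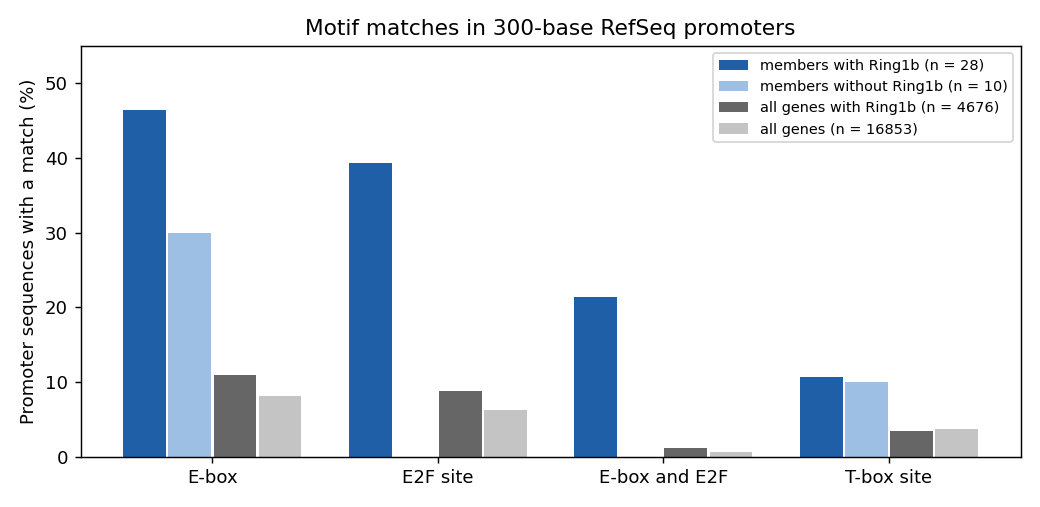
Share of promoters, in percent, with the E-box, the E2F site, both, or the T-box site within 300 bases around the start, for members with Ring1b, members without it, all genes with Ring1b and all genes. Members with Ring1b hold the E-box in 46.4% and the E2F site in 39.3%, against 8.14% and 6.19% of all genes.

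Ring1b peaks of the knockout list were about as frequent at the members as at all genes. Only Tex12 had one at its promoter, 1 of 45 (2.22%, interval 0.0562% to 11.8%), against 3.01% of all genes. Genes in no class have no deposited promoter, so both ends of the gene were searched instead, here and within 5 kb. These shares are thus not of promoters alone, unlike those of genes with Ring1b given below. That peak had a score of 53.7 and a width of 154 bp (chromosome 9, 50560407 to 50560560) and did not touch the vehicle Ring1b peak of Tex12. Within 5 kb of a promoter, 3 members had one (6.67%), against 6.32% of all genes. These were Tex12, Smc1b with a score of 55.8, and Tex14 with scores of 91.8 and 56.7. Over the gene with 10 kb on each side, 12 members had one (26.7%), against 21.8% of all genes. The highest score at any member was 109, in the body of Ddx4, and the median of the whole knockout list was 58.9. Among genes with Ring1b at a promoter in vehicle cells, 1 of 32 members had a knockout-list peak at the promoter (3.12%, interval 0.0791% to 16.2%), against 0.91% of 6041 genes. Within 5 kb it was 3 of 32 (9.38%, interval 1.98% to 25.0%), against 2.76%.

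Of the 33 vehicle Ring1b peaks at member promoters, 0 met a knockout-list peak, which allows a share of up to 9.09% by 3 counts of the total and 10.6% by the exact interval. Over all deposited promoters, 18 of 6705 vehicle Ring1b peaks met one (0.268%). Even the Tdrd5, Tdrd6 and Meioc peaks had no counterpart in the knockout list. The lists come from different lines with 1 library each, and the knockout list used a control of another line. Absence from it cannot be told apart from a difference in line, library or depth, and it is not shown that Ring1b was lost from these promoters without KAP1.

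Counts over whole genes include the promoter peaks. With these, the gene held a Ring1b peak at 34 of 45 members (75.6%), against 33.9% of all genes, and a KAP1 peak at 39 members (86.7%), against 69.6%. The members are longer, with a median of 39.9 kb, against 17.7 kb. Per 100 kb of gene they held 1.71 Ring1b peaks, against 1.04, and 3.78 KAP1 peaks, against 4.65. The 34 members were the 32 with Ring1b at a promoter together with Tex15 and Tdrd7. Ring1b peaks in the gene away from a deposited promoter were listed only at Tex15, Tdrd7, Syce3, Brdt and Tex14. Away from the promoter, the strongest KAP1 peak in Mael scored 398 and that in Brdt 311, both higher than at their promoters.

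Of the 11 members in no class, 2 nevertheless had listed Ring1b peaks in the gene. Tex15, known for meiotic break repair, had Ring1b peaks with scores of 384 (chromosome 8, 33516925 to 33518047) and 57.1, and KAP1 at 75.6, near the first annotated base of the gene at 33516689. Tdrd7 had a Ring1b peak with a score of 114 (chromosome 4, 45971991 to 45973227) and a KAP1 peak with 64.5, over its later RefSeq starts at 45972297 and 45972831, and none at its first start. The other 9 had no Ring1b peak in the gene. Piwil2, Gtsf1, Rnf17, Rec8 and Tex101 had neither protein there. A Ring1b peak with a score of 1243 lay within 10 kb of Piwil4 (chromosome 9, 14750486 to 14752533).

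A further list of 32 germline genes that are not among the 45 was set beside them. Ring1b was at the promoters of 17 (53.1%, interval 34.7% to 70.9%), against 28.7% of all genes. Of the 32, 16 were shared (50.0%), against 24.8%, and 1, Ddx25, was Ring1b only (3.12%), against 4.04%. KAP1 alone was at 8 (25.0%, interval 11.5% to 43.4%), against 34.3% of all genes. In no class were 7 (21.9%, interval 9.28% to 40.0%), against 37.5%. The intervals for KAP1 alone and for no class include the shares of all genes. The highest Ring1b scores were at Dppa3 (1076 over 2108 bp), Boll (787), Henmt1 (627) and Spata22 (587). The median Ring1b peak of the 17 scored 264 and spanned 750 bp.

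The peak lists hold no expression values, so the labelled cell type could be checked only by promoter class. All 10 embryonic stem cell markers, Pou5f1 and Nanog included, had KAP1 at the promoter, against 58.6% of all genes, and 5 of them (50.0%) had Ring1b, against 28.7%. Among 15 fibroblast markers, which mark the feeder cells, 8 had Ring1b (53.3%), and Twist1, Twist2, Prrx1 and Pdgfra had scores of 3100, above every germline gene. The others with Ring1b were Thy1 (718), Vim (559), Col1a2 (109) and Fn1 (56.3). KAP1 was at 7 of the 15 fibroblast promoters (46.7%, interval 21.3% to 73.4%), and the interval for the 10 stem cell markers was 69.2% to 100%. KAP1 alone was at 0 of the 15 and at 5 of the 10, against 34.3% of all genes. In no class were 7 of the 15 (46.7%, interval 21.3% to 73.4%) and 0 of the 10, against 37.5% of all genes. Those 7 were Col1a1, Col3a1, Pdgfrb, S100a4, Lum, Dcn and Postn. The marker lists thus had close shares with Ring1b and differed in KAP1 and in no class. Both lists are short and their intervals for KAP1 overlap. Whether these differences reflect the cell type was not tested, so the label was not tested either. The promoters of the deleted genes were themselves occupied in vehicle cells. Trim28 had scores of 209 for Ring1b and 199 for KAP1, and Rnf2 had 86.7 and 304.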

How the data were processed

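ChIP-seq was deposited as 3 peak lists and 6 gene tables. MACS 1.4.2, bedtools 2.16.2, Bowtie2 and CASAVA 1.8.2 were used on mm10 (GRCm38), per the submitters' processing notes. The score that the authors deposited is 10 times −log10 p for 1 library against its control, per the file headers. No score was under 50.0. Per the labels' protocols, cells were fixed for 10 min in 1.2% formaldehyde, with 5 µg of KAP1 or 3 µg of Ring1b antibody. The sources used here give no read depth.

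Table rows were matched to genes by RefSeq accession (GRCm38.p6), and 25 of 13039 promoter rows did not match. Meioc is listed as Gm1564, Stag3's promoter row stands under Gpc2, and one Tex14 start under Rad51c. The highest-scoring listed peak that met a promoter by 1 bp gave its score, width and summit. At members, 32 of 32 Ring1b table regions had the borders of a listed peak, and 12 of 31 KAP1 regions did, though 31 of 31 had its summit, so borders came from the lists. Gene bodies used RefSeq coordinates. The overlap step was tested on simulated intervals. Python 3.11.15, numpy 2.4.6 and scipy 1.17.1 were used.

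All members could be named. Values were given in full for the 3 highest Ring1b scores of each function group, Ring1b only and KAP1 only members, Tex14, members with a knockout-list peak within 5 kb, and the 4 highest of the other germline genes. Members, lists and motifs were chosen with earlier results of these data known. Alternatives were other windows, higher scores, whole-gene classes and matching by symbol.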

Additional observations from a re-analysis of the deposited data

How the results depend on the processing

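Of 45 alternative values, 38 stayed within 1.5 times the main count or within its spread. Inside that limit, the upper 50% of scores gave 19 shared members, against 28, and 26 members with Ring1b, against 32. Members with a KAP1 only promoter numbered 6 with whole-gene classes, with a window of 5 kb and with the upper 50% of scores, against 3. Members with a Ring1b only promoter numbered 1 with whole-gene classes and 7 with the upper 50% of scores, against 4. Knockout-list peaks were at 3 members with a window of 5 kb and at 12 over the gene with 10 kb on each side, against 1 at the promoter. Matching by symbol alone, an alternative chosen after seeing the data, gave 25 shared members, against 28. The cause of these shifts was not tested beyond the wider or narrower search that each alternative makes. No paired analysis was possible because each group has 1 library, and for the same reason no library could be left out. Read depth, which limits how weak a peak can be listed, is unknown.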
